A study of Mus musculus with 8 samples.

Results

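Partly methylated open sea sites are CCGG sites far from CpG-rich sequence whose cytosine methylation lay between the methylated and the unmethylated end of the scale in mouse liver. HELP-tagging measures such sites with HpaII, an enzyme whose cut at CCGG is blocked by methylation of the inner cytosine, and reads the tags against MspI, which cuts either way. The m-score runs from 0, the methylated end, where a site had no HpaII tag, to 100, the unmethylated end, where it had no MspI tag. Livers came from 8 C57BL/6J mice, of which 4 had received a high-fat diet (HFD) with lingonberries and 4 the HFD alone, so that all animals shared the strain, the tissue and the high-fat background. The labels used here give no age, sex, feeding time or lean-diet group, and a piece of liver holds several cell types whose contributions the assay pools.

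Members were chosen by position and by level. A core site was a site with 5 or more other listed sites within 500 bp, the density typical of CpG islands, and open sea sites lay over 4000 bp from any core site. Members were the autosomal open sea sites listed in all 8 livers, with at least 10 MspI tags and a mean m-score over the 8 livers from 25 to below 75. There were 180286 of them among 682639 open sea sites that met the other conditions (26.4%), and among 1310003 sites listed in every liver (13.8%). The other open sea sites comprised 476040 methylated sites (mean m-score under 25, 69.7%) and 26313 unmethylated sites (75 or above, 3.85%). The level of a member is therefore a description, while the diet, the position of the sites and their neighbours played no part in choosing them beyond the distance from core sites.

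In mammals most CpGs outside CpG islands carry methylation, which is kept through cell division by maintenance methyltransferases. Sites far from islands that are partly methylated in a tissue can be methylated in some cells and not in others, or on 1 of the 2 alleles, and many lie in distal regulatory elements, where bound transcription factors are known to go with locally low methylation. HELP-tagging sees the sum over cells and alleles and does not tell these cases apart. Positions are given on the mouse build mm9. No mm9 genome or annotation was used here, so sites are named by position, with neither gene nor sequence.

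The mean m-scores of open sea sites formed a continuous slope with no separate peak in the intermediate range. Among members the median was 42.4 and the middle 50% lay between 32.2 and 56.8. The band from 25 to below 35 held 59296 members, and the counts fell through 40173 (35 to below 45), 30896 (45 to below 55) and 25929 (55 to below 65) to 23992 (65 to below 75). The thresholds cut this slope at both ends, with 7425 open sea sites at 24 to below 25 against 7093 members at 25 to below 26, and 2284 members at 74 to below 75 against 2297 sites at 75 to below 76. Along the other thresholds, 2486 sites lay 3501 to 4000 bp from a core site and 2294 members 4001 to 4500 bp, with mean m-scores of 48.3 and 47.7. Likewise, 7247 sites had 9 to below 10 MspI tags and 7118 members 10 to below 11, with mean m-scores of 44.7 and 44.4.

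**Figure D1:**
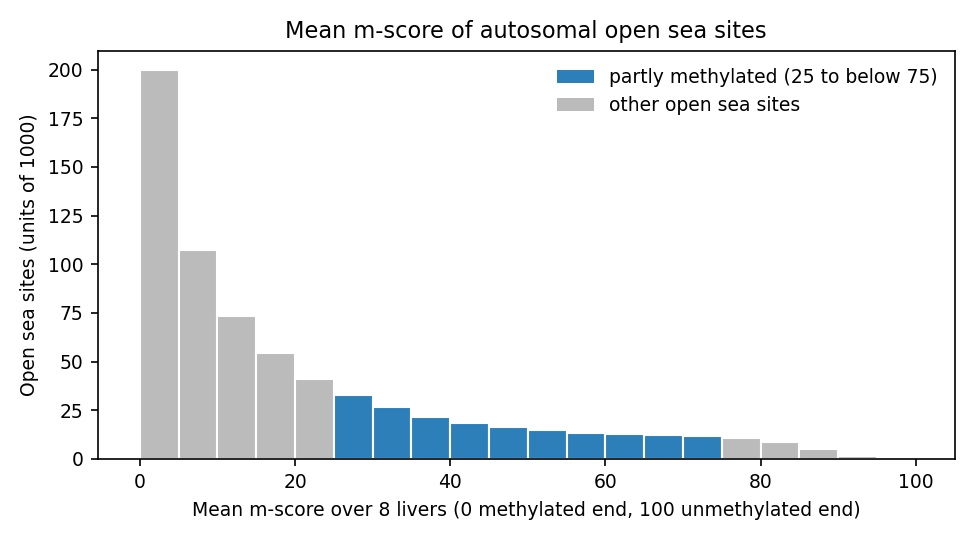
Autosomal open sea sites, in units of 1000, in each 5-unit step of the mean m-score over 8 livers, with the 180286 partly methylated sites in blue. The counts fall from the methylated end through the blue range, with no separate peak between 25 and 75.

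Depth set how well a single member was measured. The libraries held 16060380, 9961952, 6104751 and 10196666 HpaII tags with lingonberries and 7018541, 6511377, 5858601 and 7411193 with the HFD alone, so the 3 deepest were all in the lingonberry group. A member had a median of 24 MspI tags in the shared reference, and the middle 90% had 11 to 57. Its median HpaII tags were 10, 6, 4 and 7 in the lingonberry libraries and 5 in each HFD library. The percentage of members without any HpaII tag was 1.52, 3.08, 6.74 and 2.10 with lingonberries and 3.55, 3.18, 3.34 and 3.43 without. Tags amplified by PCR carried no molecular identifiers, so what is said on depth concerns the counting of tags, not of molecules.

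Most members were intermediate in most livers. On average a member had an m-score of 25 to below 75 in 5.95 of the 8 livers, 31769 members (17.6%) did so in all 8, and 8790 (4.88%) in 3 or fewer. The agreement rose with the MspI tags at the site. It was 8.26% in all 8 livers for the 67130 members with 10 to below 20 tags, 18.2% with 20 to below 35, 27.3% with 35 to below 50, 36.9% with 50 to below 100, and 51.7% for the 576 members with 100 or more. Over the same steps the median SD of the m-score between 4 livers went from 16.4 to 7.20 with lingonberries and from 16.8 to 7.30 without, so sites with more tags were intermediate in more livers and with a smaller spread. These figures describe the members and carry no test, since the mean of the same 8 values chose them.

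**Figure D2:**
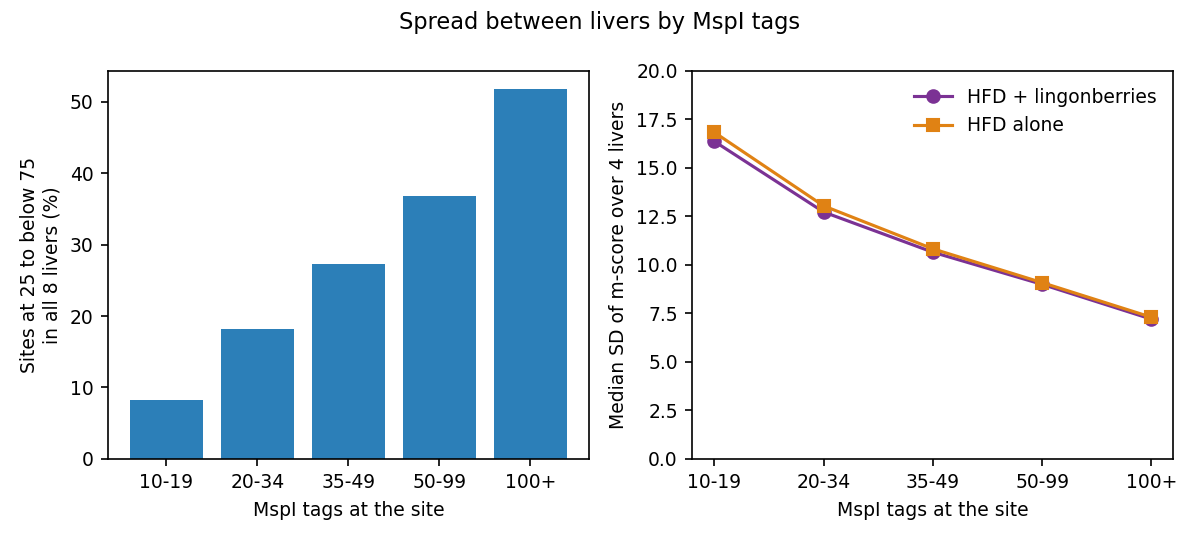
Left, percentage of partly methylated open sea sites whose m-score was 25 to below 75 in all 8 livers, by MspI tags. Right, median over sites of the SD of the m-score over the 4 livers of each diet. The percentage rises from 8.26 to 51.7, and the SD falls from over 16 to about 7 in both groups.

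The tags of 1 member varied between livers of the same diet, animals and counting together. Over 117638 members with at least 20 tags in the 4 lingonberry libraries and no shared tags, the chi-square per degree of freedom between those libraries averaged 2.17, and over 92936 such members it averaged 1.67 among the HFD libraries. Counting error alone would give a value of 1. Unmethylated open sea sites had 3.65 and 2.26, and the methylated ones with that many tags 1.97 and 1.57. Tags differ between the classes, with medians of 25.25 per library over all unmethylated sites and 6.125 over all members, and between the libraries. The part of depth in these values was not tested. Across members, the Pearson correlation of the m-score between 2 livers was 0.393 to 0.517 for pairs of lingonberry livers, 0.371 to 0.434 for pairs of HFD livers and 0.340 to 0.489 for mixed pairs. Livers of different diets were thus about as alike across members as livers of the same diet. These correlations run over sites that share 1 MspI reference, and the limited range of the members lowers them: across all 920200 sites with at least 10 MspI tags the same pairs gave 0.824 to 0.897.

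Members lay near other members. Of all open sea sites found 26 to 50 bp from a member, 61.3% were members themselves, 23.9% were methylated and 14.8% unmethylated. Partners of any open sea site at that distance were members in 26.02%, methylated in 66.1% and unmethylated in 7.92%. At 101 to 200 bp the percentage of partners that were members was 53.6 against 29.2, at 301 to 500 bp 43.6 against 31.2, at 501 to 1000 bp 37.2 against 30.4, and at 5001 to 10000 bp 30.5 against 28.0. Partners of members were therefore more often members over distances of less than 1 kb, and close to the level of any open sea site beyond 1 kb. Near partners were also more often unmethylated, so the excess was not limited to the intermediate state. Across all open sea pairs the Pearson correlation of the mean m-score was 0.86 at 26 to 50 bp (20265 pairs), 0.65 at 201 to 300 bp, 0.29 at 501 to 1000 bp and 0.066 at 5001 to 10000 bp. Pairs in which both sites were members had 0.45 at 26 to 50 bp (3233 pairs), 0.33 at 101 to 200 bp, 0.15 at 501 to 1000 bp and 0.041 at 5001 to 10000 bp. All pairs come from the same 8 libraries, and sites of a close pair share DNA fragments.

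The diet difference correlated far less between neighbours. For pairs of members the correlation of the difference between the diets (lingonberry minus HFD) was 0.034 at 26 to 50 bp, 0.046 at 101 to 200 bp and 0.033 at 501 to 1000 bp, and -0.038 over the 564 pairs at up to 25 bp. The deviations of single livers from their group mean had 0.029 at 26 to 50 bp, 0.033 at 101 to 200 bp and 0.0049 at 501 to 1000 bp. In pairs 26 to 50 bp apart, 51.4% had differences of the same sign. The difference at a member rests on 4 livers against 4, with a median SD of the m-score of 13.1 (lingonberry) and 13.3 (HFD). What this spread does to the correlations was not tested, so their low values do not tell whether neighbours share a diet difference.

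**Figure D3:**
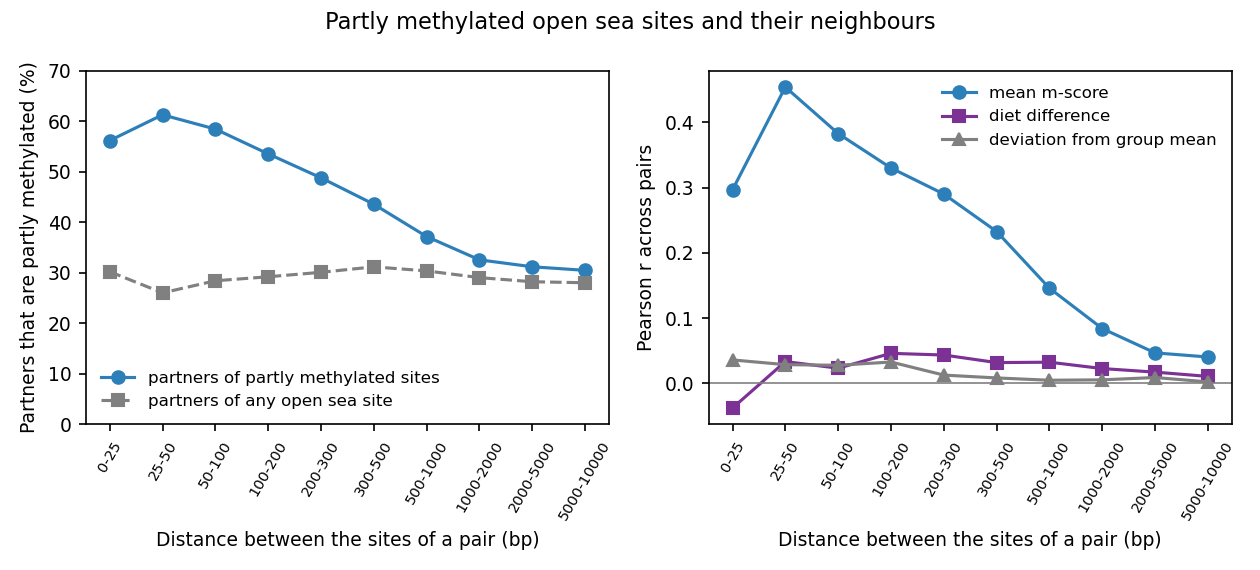
Left, percentage of open sea partners that were partly methylated, by distance, for partners of partly methylated sites and of any open sea site. Right, Pearson r across pairs of partly methylated sites for the mean m-score, the diet difference and the deviation of a liver from its group mean. The mean m-score correlates up to 0.45 at short range, while the other 2 curves stay below 0.05.

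Members made up more of the open sea sites where HpaII sites lay more densely. They were 25.0% of open sea sites with 0 other listed sites within 500 bp, 26.3% with 1, 28.4% with 2, 30.5% with 3 and 33.4% with 4. Unmethylated sites made up from 1.83% to 18.3% over the same steps. By distance from the nearest core site, members made up 29.7% at 4 to 10 kb, 27.7% at 10 to 50 kb, 25.5% at 50 to 200 kb and 23.4% beyond 200 kb. Members themselves lay a median of 46035 bp from a core site, between the unmethylated (33195 bp) and the methylated (55677 bp) open sea sites. Chromosome 11 had the highest percentage of members among its open sea sites (28.4%) and chromosome 18 the lowest (24.5%), a narrow range over the 19 autosomes.

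On the scale of 1 Mb the percentage varied more. Of 2396 bins with at least 50 open sea sites, the median bin had 25.0% members and the middle 90% had 16.2% to 33.5%. The bin on chromosome 6 from 69000001 to 70000000 was the lowest, with 5 members among 57 open sea sites (8.77%). The 3 highest bins below were chosen after their values were seen. The bin on chromosome 18 from 37000001 to 38000000 had 143 of 304 (47.0%), that on chromosome 14 from 53000001 to 54000000 had 67 of 148 (45.3%), and that on chromosome 4 from 114000001 to 115000000 had 138 of 310 (44.5%). Bins with more open sea sites had higher percentages of members (Pearson r = 0.50 across bins, which share the 8 libraries).

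Some members formed unbroken stretches. Chains of 3 or more sites with at least 10 MspI tags and gaps of at most 1000 bp numbered 83451 over the whole series. In 2758 of these every site was a member, with a median length of 640 bp, and together they held 9358 members (5.19%). Of the 2758, 2003 had 3 sites, 533 had 4 and 222 had 5 or more. The longest were 11 sites at chr10:79343729-79346734 and 11 sites at chr9:63830019-63833323. In the first, single sites had mean m-scores from 31.2 to 70.01, and the stretch had 43.6, 54.9, 51.9 and 57.5 in the lingonberry livers and 50.01, 51.8, 52.2 and 54.7 in the HFD livers. The groups overlapped throughout. In the second the stretch had 50.5, 46.5, 39.6 and 54.9 with lingonberries and 49.4, 47.4, 53.04 and 59.8 without, again with overlap. The 10 sites at chr4:126938939-126941736 had 44.2 ± 2.72 and 43.7 ± 3.09, the 9 sites at chr5:103638323-103640883 had 51.1 ± 1.87 and 52.5 ± 5.70, and the 9 sites at chr15:99647940-99650319 had 52.1 ± 5.17 and 51.4 ± 5.08 with and without lingonberries (SD, n = 4 each). None of these 5 passed the test between the diets by limma (adjusted p from 0.866 to 0.996).

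The question of the study was whether lingonberries alter liver methylation on a high-fat diet. At partly methylated open sea sites the mean m-score was 43.05, 41.9, 44.2 and 43.2 in the lingonberry livers and 45.6, 47.5, 49.5 and 45.6 in the HFD livers. All 4 lingonberry livers lay below all 4 HFD livers. The means were 43.07 ± 0.94 and 47.06 ± 1.86 (SD, n = 4), a difference of -3.99 ± 1.04 (SE) towards the methylated end (two-sided exact permutation test, p = 0.0286, which is as low as 4 against 4 can go, adjusted p = 0.0429 over 3 open sea classes). As the MspI reference is scaled to each library, the m-score compares a site with the rest of its own liver and gives no absolute methylation level. The HFD livers ranked in the reverse order of their depth, with the highest score in the shallowest library. With all libraries thinned to 5857609 tags the difference was -4.60 (exact p = 0.0286), at members still chosen on the unthinned scores. The call after adjustment was lost without lingonberry sample 1, 2 or 3 (-3.98, -3.59 and -4.36). In these settings the exact p stayed at 0.0286, while the adjusted p over the 3 classes was 0.0857 each. The call was also lost with at least 50 MspI tags (-2.34, exact test, adjusted p = 0.0857). Tags were further rescaled so that unmethylated open sea sites had the same tags per MspI tag in every liver. The call was lost there too (-2.40, exact test, adjusted p = 0.171).

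The shift ran through the whole intermediate range. In the band from 25 to below 35 the livers had 27.6 ± 0.88 with lingonberries and 31.7 ± 1.84 without. The band from 35 to below 45 had 37.4 ± 1.05 and 42.05 ± 2.13, a difference of -4.63 ± 1.19 (SE), the widest of the 5. In the upper bands the differences were -4.33 (45 to below 55), -3.62 (55 to below 65) and -2.49 (65 to below 75). The groups did not overlap in any band (exact test, adjusted p = 0.0286 for each over 5 bands). All 5 calls come from the same 8 livers, and none remained with at least 50 MspI tags.

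**Figure D4:**
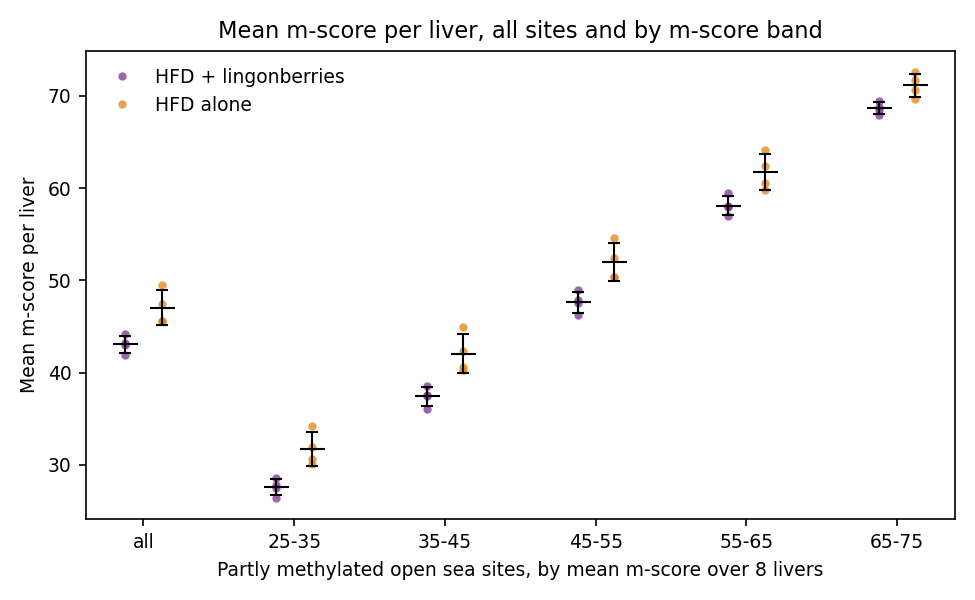
Mean m-score per liver over all partly methylated open sea sites and over bands of their mean m-score; points are single livers, black bars the mean ± SD of 4. In each column the lingonberry points lie below the HFD points, with the widest gap at 35-45.

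The percentage of members scored as methylated was higher in each lingonberry liver than in any HFD liver. An m-score under 25 was found for 21.1%, 22.3%, 22.5% and 19.3% of members in the lingonberry livers and for 18.02%, 14.9%, 13.3% and 18.0% in the HFD livers. The means were 21.3 ± 1.45% and 16.0 ± 2.36% (SD, n = 4), although the difference did not pass the correction over 3 ranges (exact p = 0.0286, adjusted p = 0.0857). The percentage that stayed intermediate was 73.03 ± 2.85 and 75.7 ± 0.73, and the percentage at 75 or above 5.68 ± 1.84 and 8.24 ± 1.86, neither past the test (exact test, adjusted p = 0.0857 for each). Lingonberry sample 3 had the lowest intermediate percentage (69.1) and the most members without a tag, and without it the intermediate percentage differed by -1.40. With m-scores of 35 to below 65 as the range of the members it differed by -1.14 (exact p = 0.771). With libraries thinned to equal tags the lingonberry livers had 69.4 ± 1.28% intermediate members and the HFD livers 74.7 ± 1.09%, and this difference of -5.29 passed (exact test, adjusted p = 0.0429). By group means, 141927 members (78.7%) were intermediate with both diets, 21777 (12.1%) had a mean under 25 with lingonberries and not without, and 9143 (5.07%) the other way round.

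In HpaII tags alone, without the MspI reference, the difference did not pass. The shares are of tags at the 901207 autosomal sites listed in every liver with at least 10 MspI tags. Members held 17.9%, 17.4%, 19.6% and 17.9% of these in the lingonberry livers and 19.6%, 20.8%, 22.5% and 19.6% in the HFD livers. Lingonberry sample 3 lay within the HFD range. On the log2 scale, tags per 1000000 differed by -0.18 ± 0.06 between lingonberry and HFD livers (SE, exact p = 0.0857, adjusted p = 0.114). It was -0.20 and passed for members over 20000 bp from a core site (exact test, adjusted p = 0.0429), and -0.21 and passed without lingonberry sample 3 (exact test, adjusted p = 0.0429).

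The other open sea sites had lower mean scores with lingonberries too. Methylated open sea sites had 7.60 ± 0.25 with lingonberries and 8.95 ± 0.66 without (SD, n = 4), with no overlap (difference -1.35, exact test, adjusted p = 0.0429). Unmethylated ones had 81.3 ± 0.37 and 82.3 ± 0.69 (SD, n = 4) and did not pass (exact test, adjusted p = 0.0857). In log2 tags per 1000000 the methylated sites differed by -0.26 ± 0.07 (SE, exact p = 0.0286, adjusted p = 0.0857), with no overlap, against -0.18 for members. The gap between members and methylated sites was 35.4, 34.6, 36.5 and 35.3 in the lingonberry livers and 37.3, 38.4, 39.7 and 37.04 in the HFD livers, with no overlap. It was narrower with lingonberries, by a difference of -2.64 ± 0.72 (SE, exact p = 0.0286). The score is bounded at 0, so sites near that end have less room to fall. The call was lost without lingonberry sample 2 (-2.36) or HFD sample 3 (-2.12, exact p = 0.0571 each) and with at least 50 MspI tags (-1.22, exact p = 0.0857). With medians over sites in place of means the difference was -6.54 (exact p = 0.0286). The median over members differed by -4.63, so the median over methylated sites was higher with lingonberries, unlike their mean. Methylated sites had a median of 0.75 HpaII tags per library, and what depth does to their median score was not tested. In tags, the log2 ratio of members to unmethylated open sea sites was 0.62, 0.58, 0.76 and 0.82 with lingonberries and 0.71, 0.80, 0.83 and 0.76 without. These values overlapped, and the difference of -0.08 ± 0.06 (SE) did not pass (exact p = 0.257). It was -0.12 without lingonberry sample 4 and -0.043 without lingonberry sample 2. It turned to 0.083 with at least 50 MspI tags (exact p = 0.714).

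Within the members, the diet difference followed the local density of HpaII sites. The 77895 isolated members, with 0 other listed sites within 500 bp, had 39.8, 39.3, 41.9 and 39.1 with lingonberries and 44.5, 46.5, 49.4 and 43.4 without, a difference of -5.91 ± 1.47 (SE). The 102391 members with 1 to 4 neighbours had 45.5, 43.8, 45.9 and 46.3 with lingonberries and 46.5, 48.2, 49.6 and 47.3 without, a difference of -2.53 ± 0.85 (SE). The groups did not overlap in either set. The difference between the sets was itself tested. The isolated minus neighboured m-score was -5.73, -4.55, -3.97 and -7.14 in the lingonberry livers and -2.05, -1.67, -0.23 and -3.91 in the HFD livers. It differed between the diets by -3.38 ± 1.03 (SE, exact p = 0.0286), with no overlap, although the nearest values, -3.97 and -3.91, almost touched. That call was lost without any 1 lingonberry sample or HFD sample 3, and with at least 20 MspI tags, with exact p = 0.0571 in each case and the same sign.

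By single steps of density the difference was -5.91 with 0 neighbours, -3.52 with 1, -1.86 with 2, -0.74 with 3 and 0.34 with 4. The 4851 members with 4 neighbours had 53.1 ± 1.48 with lingonberries and 52.8 ± 0.54 without (SD, n = 4), with overlapping livers. None of the 5 steps passed the correction over the 5 (exact test, adjusted p from 0.0714 to 0.686). A similar series was seen with distance from core sites, where the difference was -2.78 at 4 to 10 kb, -3.33 at 10 to 50 kb, -4.34 at 50 to 200 kb and -5.85 beyond 200 kb. The 3 outer ranges passed (exact test, adjusted p = 0.0381 each) and the nearest did not (adjusted p = 0.0571). None of the 3 remained without lingonberry sample 1 or 2. The change from the nearest to the farthest range, a comparison added after the data were seen, was -3.07 ± 1.26 (SE) and did not pass (exact p = 0.0571). It was -1.995 without lingonberry sample 4 (exact p = 0.0857).

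By value, the difference moved with density and with distance when the other was held, but no contrast between these sets was tested. Among isolated members it was -4.67 ± 1.499 (SE) at 4 to 10 kb and -7.02 ± 1.579 beyond 200 kb. Among neighboured members it was -1.89 ± 1.028 and -3.90 ± 0.895 at the same distances. Neighboured members overlapped and did not pass at 4 to 10 kb or at 10 to 50 kb (exact test, adjusted p = 0.0857 and 0.0653). The neighboured sets farther out and all isolated sets passed (exact test, adjusted p = 0.0381 each). In the farthest isolated set, 18508 members, the livers had 37.5, 37.3, 39.0 and 34.7 with lingonberries and 42.7, 45.1, 47.3 and 41.4 without, with no overlap. By MspI tags the difference was -4.44 (10 to below 20), -4.09 (20 to below 35), -3.59 (35 to below 50) and -2.34 (50 or more, not past the test). Site density and MspI tags thus moved with the diet difference, and their part in it was not tested.

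**Figure D5:**
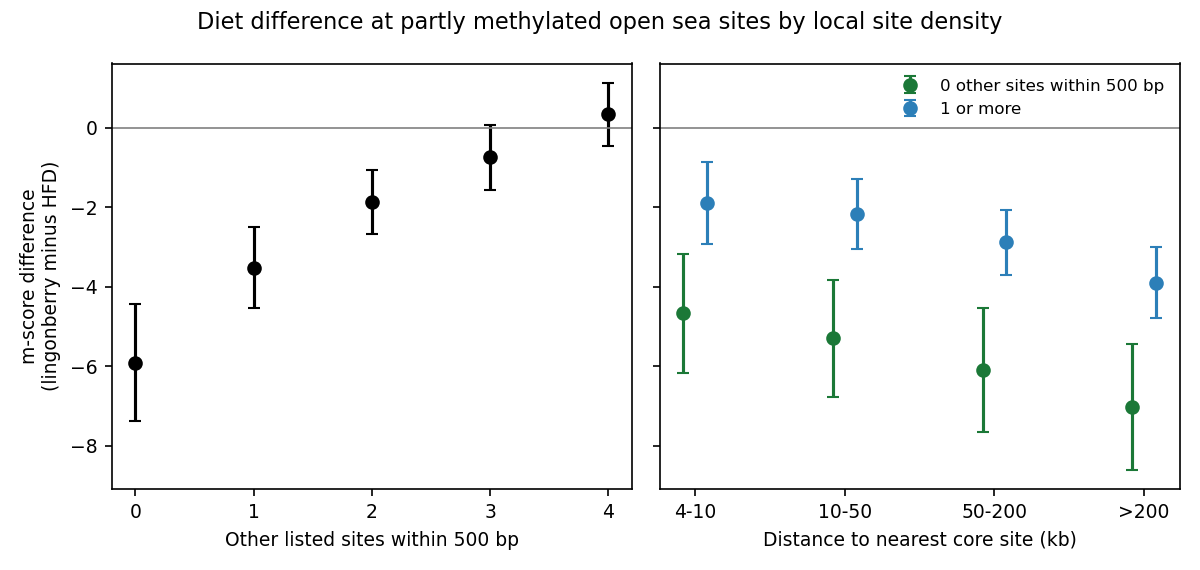
Difference in mean m-score between the diets (lingonberry minus HFD, ± SE, 4 livers each) at partly methylated open sea sites. Left, by how many other sites were listed within 500 bp, from -5.91 with 0 to 0.34 with 4; right, by distance from the nearest core site, for isolated and neighboured sites.

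The shift was present on every autosome. The mean m-score of members was lower with lingonberries on all 19, and the groups did not overlap on any (exact test, adjusted p = 0.0286 for each over 19). The lowest difference was on chromosome 16 (-4.69) and the one nearest to 0 on chromosome 19 (-3.37). These values share the 8 livers and are no independent evidence of the shift.

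No single member passed the test across the series. Of the 920200 sites tested by limma, 90 passed at an adjusted p below 0.05 (0.00978%), and 0 of these were members. At an unadjusted p below 0.05, 11231 members were lower with lingonberries (6.23% of members, against 3.23% of all sites) and 2210 higher (1.23%, against 1.94%). Before any test, 116671 members (64.7%) were lower and 63615 (35.3%) higher, with a median difference of -3.86. Over all sites 51.3% were lower and 41.7% higher, with 64123 sites equal and a median of -0.24. The 2 groups did not overlap at 5497 members with lower values (3.05%, against 1.57% of all sites) and at 1039 with higher values (0.576%, against 0.817%). Members thus leaned towards lower values, in single sites as in the means, and the same 8 livers give both. The other open sea sites leaned the same way. Unmethylated ones were lower in 57.6% and higher in 42.4%, without overlap in 2.47% and 1.01%. Methylated ones were lower in 51.1% and higher in 37.3%, with 55081 equal, and without overlap in 1.28% and 0.451%. With log2 tags per 1000000 in place of the score 117 sites passed (0.0127%), 0 of them members (10660 members lower and 2020 higher at an unadjusted p below 0.05, limma, where 3.33% of all sites were lower and 2.14% higher). Without a mean trend 6 passed, and without 1 of the samples between 0 and 8 did, with 8 without lingonberry sample 3, 4 without HFD sample 1 or 4, and 1 without HFD sample 3. Over all sites 101 passed without a mean trend (0.011%), 514 without lingonberry sample 3 (0.0559%), 513 and 494 without HFD sample 1 and 4 (0.0557% and 0.0537%) and 477 without HFD sample 3 (0.0518%). Of the 597563 sites with a mean of 1 or more HpaII tags, among them all 180286 members, 0 passed.

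The member with the smallest p for a lower score lies at chromosome 11, position 24999541, an isolated site 865534 bp from a core site. It had m-scores of 23.6, 19.4, 16.0 and 27.4 with lingonberries and 67.5, 61.4, 64.5 and 62.1 without, from 4, 2, 1 and 3 against 8, 6, 6 and 7 HpaII tags and 19 MspI tags (limma adjusted p = 0.0528). The site at chromosome 8, position 13555906, had 53.6 ± 3.23 and 76.5 ± 1.78 from 43 and 63 tags in all (SD, n = 4, limma adjusted p = 0.0911). That at chromosome 15, position 5269031, had 11.9 ± 8.55 and 65.9 ± 3.10 from 4 and 23 tags (limma adjusted p = 0.097). In each of the 3 the groups stood far apart. The sites on chromosomes 11 and 15 rested on few tags, 37 and 27 in all, against a median of 49 for a member. The site on chromosome 8 had 106. The adjusted p values given for single members come from the limma test over all 920200 sites. Over only the sites with a mean of 1 or more HpaII tags, the smallest adjusted p of any member by limma was 0.897.

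In the other direction, the site at chromosome 6, position 73446505, had 57.6 ± 3.14 with lingonberries and 26.7 ± 2.44 without, from 18 and 4 tags (SD, n = 4, limma adjusted p = 0.124). Each HFD library held exactly 1 tag there. The site at chromosome 3, position 145401701, had 69.9 ± 3.90 and 42.4 ± 3.16 from 50 and 12 tags (limma adjusted p = 0.152), with 3 tags in each HFD library. At chromosome 8, position 110592343, the scores were 56.1 ± 3.95 and 26.7 ± 2.44 from 34 and 8 tags (limma adjusted p = 0.231), with 2 tags in each HFD library. Equal tags in libraries of close depth give nearly equal scores, which goes with the small SD in the HFD group at these 3 sites.

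Stretches of members gave no call either. Of 83451 stretches tested by limma 0 passed (0%), and the smallest adjusted p of a member stretch was 0.767. At an unadjusted p below 0.05, 190 of the 2758 member stretches were lower with lingonberries (6.89%, against 4.31% of all stretches) and 68 higher (2.47%, against 2.09%). On log2 tags per 1000000 0 passed as well (100 lower and 29 higher at an unadjusted p below 0.05, limma). Those were 3.63% and 1.05% of member stretches, against 4.25% and 3.36% of all stretches, so the members' share was below the background in both directions. The groups did not overlap in 60 with lower values (2.18%, against 2.28% of all stretches) and 26 with higher values (0.943%, against 1.28%), shares near or below the background. The median difference was -1.68 in member stretches and -0.58 in all stretches. The member stretch with the smallest p, 3 sites at chr2:158484704-158485145, had 64.6, 59.6, 63.4 and 64.4 with lingonberries and 77.3, 73.7, 74.8 and 72.0 without (limma adjusted p = 0.767). The 3 sites at chr9:65738384-65739003 had 57.8 ± 1.97 and 69.2 ± 1.84, and the 3 sites at chr9:122338585-122338786 had 47.9 ± 3.85 and 30.3 ± 1.63, the opposite direction (SD, n = 4, limma adjusted p = 0.767 for both).

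The best covered members carried far more tags than a unique site usually does. The site at chromosome 13, position 9011389, had 71019 HpaII tags over the 8 libraries and 18513 MspI tags, against a median of 49 HpaII and 24 MspI tags for a member. Its m-scores were 53.0, 65.7, 73.3 and 75.3 with lingonberries and 64.5, 59.02, 65.9 and 62.9 without, so at this depth the lingonberry livers spanned over 20 units and the HFD livers under 10. The site at chromosome 3, position 5860702, had 7115 tags and scores of 46.1 ± 7.90 and 48.4 ± 13.0 (SD, n = 4). The other 3 of the 5 lie close together on chromosome 11, at positions 3056721, 3065503 and 3093352, with 1807, 1534 and 932 tags. Their scores were 28.1 ± 4.13 and 32.4 ± 6.70, 38.9 ± 1.28 and 46.9 ± 8.12, and 28.6 ± 10.4 and 31.1 ± 3.81 with and without lingonberries. None of the 5 passed the test between the diets by limma (adjusted p from 0.83 to 1).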

How the data were processed

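The authors deposited 1 table per liver with, per HpaII site, a position and 2 values. Per the file headers these are an m-score, a score from 0 to 100, and conf, handled as a signal with no negative values; from the values they are the angle and the length of the vector of scaled MspI and HpaII tags. The submitters' processing notes name mm9 and CASAVA; for the tag aligner, the MspI reference and the filters the sources used here say nothing. The sine component gave HpaII tags (whole within 0.02 at 96.1% to 97.0% of sites above 0) and the cosine component MspI tags, once divided by its commonest value among rows with an m-score of 0. Core sites were counted over the 1320570 sites listed in any file. Shared (fractional) tags affected 4.47% of members.

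Each liver gave 1 mean per set of sites. Group means were compared by exact permutation tests over 70 assignments, two-sided, with Benjamini-Hochberg adjustment within each family. Single sites and stretches were tested over the whole series with limma 3.58.1 (R 4.3.3), empirical Bayes with a mean trend, and the script was tested on simulated data. The members, lists and alternatives were chosen with earlier results of these data known. Named sites and stretches are the 5 stretches with most sites, the 5 members with most unshared tags, and the 3 members per direction and 3 stretches with the smallest p. The labels give no batch, and nothing but the 4 animals per group of the design says that samples are separate mice. Gene lists and sequence motifs planned for an mm9 annotation were not used here.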

Additional observations from a re-analysis of the deposited data

Results flagged for a closer look

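One library lay far from the others of its group. In log2 tags per 1000000 at unmethylated open sea sites, lingonberry sample 4 had 16.63, against 16.83, 16.83 and 16.83 in the other lingonberry livers. It was the only such sample among 48 groups of 4 values tested, where chance gives about 2.4. This class is the reference in the comparison of members with unmethylated sites and in the rescaled m-scores.

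A pair of differences between kinds of site passed the exact test between the diets, and both calls were lost in some settings. The m-score gap between members and methylated open sea sites differed by -2.64 (exact p = 0.0286), and that between isolated and neighboured members by -3.38 (exact p = 0.0286). No explanation was tested for either.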

How the results depend on the processing

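No paired analysis was possible because the labels number the samples in 1 series and share no number between the groups. Over all alternatives, the member mean m-score kept its direction. Its call was lost with a MspI minimum of 50 tags (-2.34), with the median over members (-4.63), and, in settings added after seeing the data, with tags rescaled to unmethylated open sea sites (-2.40) and with the m-score of the summed tags (-3.74); leaving out 1 sample gave -4.47 to -3.17. The member share of tags passed beyond 20000 bp from core sites (-0.20; -0.21 to -0.14 without 1 sample). The gap to methylated open sea sites missed with a MspI minimum of 50 (-1.22, and -2.99 to -2.12 without 1 sample). It was -6.54 with medians, where the methylated sites moved up with lingonberries. The ratio to unmethylated open sea sites turned to 0.083 with that minimum (-0.12 to -0.043 without 1 sample). The intermediate percentage passed with a MspI minimum of 20 (-3.06) or 50 (-3.51). It also passed with thinned libraries (-5.29), at members chosen before thinning. Without 1 sample its difference was -3.67 to -1.40. It was -1.14 with m-scores of 35 to below 65 (not past the test) and -0.42 with members in range in both group means (not tested). The isolated minus neighboured difference missed with a MspI minimum of 20 (-3.75) or 50 (-4.85), m-scores of 35 to below 65 (-3.62) and medians (-3.42; -4.03 to -2.78 without 1 sample). The farthest minus nearest difference passed with a MspI minimum of 50 (-3.55; -3.75 to -1.995 without 1 sample).

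Of 5 m-score bands, 3 passed with a MspI minimum of 20, with thinned libraries and with medians, 3 of the 3 left with m-scores of 35 to below 65, 0 with a MspI minimum of 50, and 3 to 5 without 1 sample. Distance ranges past the test went from 3 to 0 with a MspI minimum of 50, and 0 to 3 passed without 1 sample. Member sites past the adjusted p were 6 without a mean trend, 0 to 8 without 1 sample and 0 with a mean of 1 or more HpaII tags. Stretches were 0 throughout. The cause of these changes was not tested, except that fewer members (15438 with a MspI minimum of 50) and fewer samples follow from the settings.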
